A study of Mus musculus with 24 samples.

Results

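The TAM receptors Axl, Mertk and Tyro3 and their ligands Gas6 and Pros1 were followed in the aorta after an episode of angiotensin II (Ang II) infusion. These 5 genes were chosen by name and all 5 were in the count table of 37606 genes. The RNA came from homogenates of whole aorta from wild-type mice that carried no stated transgene or deletion. A subcutaneous osmotic minipump delivered Ang II, a vasoconstrictor peptide hormone, or vehicle (sham) over 2 weeks. After a further 2, 4 or 6 months the aortas were collected, which gave sham and Ang II groups at each time, 6 groups with 4 libraries each and 24 libraries in all. The age and sex of the mice, and whether each replicate is a separate mouse, are not given in the labels, so each p-value reflects variation among these libraries alone, and part of it may be technical. The series asks about Axl in the inflammation and organ damage that accompany hypertensive remodelling of the aorta.

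TAM receptors are receptor tyrosine kinases that recognise dying cells indirectly. Gas6 and protein S, the product of Pros1, bind phosphatidylserine exposed on apoptotic cells through a domain that must first be carboxylated by a vitamin K-dependent enzyme, and bridge that membrane to the receptor. Protein S activates Mertk and Tyro3, while Gas6 activates all 3 receptors and has the highest affinity for Axl. Mertk is the TAM receptor through which many tissue macrophages clear apoptotic cells, Axl is found in fibroblasts, smooth muscle, endothelium and activated myeloid cells, and all 3 restrain innate cytokine signalling.

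In coordinates of build mm10, Axl (ENSMUSG00000002602.16) spans chr7:25757273-25788705 on the minus strand and Mertk (ENSMUSG00000014361.5) chr2:128698956-128802894 on the plus strand. Tyro3 (ENSMUSG00000027298.17) lies at chr2:119797733-119818104 on the plus strand. The ligand genes are Gas6 (ENSMUSG00000031451.6), at chr8:13465374-13494490 on the minus strand, and Pros1 (ENSMUSG00000022912.8), at chr16:62854307-62929346 on the plus strand. Gas6 shares 34 exonic bases with Tmem255b on the opposite strand, which had 2796 counts over the 24 libraries. Mertk overlaps the antisense gene Gm14011 and the small nucleolar RNA gene Gm23172 without sharing an exonic base, and these had 123 and 90 counts.

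The 250 bases before the RefSeq start (assembly GRCm38.p6) are shown for Mertk, the member whose Ang II effect passed a test, and for Axl and Gas6, the pair of members whose levels were most alike across libraries. Capitals mark the GC box, GGGCGG or CCGCCC, to which Sp-family factors bind. Mertk is read at chr2:128698665-128698914 on the plus strand, Axl at chr7:25788734-25788983 on the minus strand and Gas6 at chr8:13494536-13494785 on the minus strand.
Mertk: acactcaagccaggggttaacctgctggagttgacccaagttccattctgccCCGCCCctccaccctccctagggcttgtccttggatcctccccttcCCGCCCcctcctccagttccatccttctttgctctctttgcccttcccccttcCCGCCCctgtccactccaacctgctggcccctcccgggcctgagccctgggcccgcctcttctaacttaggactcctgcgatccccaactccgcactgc
Axl: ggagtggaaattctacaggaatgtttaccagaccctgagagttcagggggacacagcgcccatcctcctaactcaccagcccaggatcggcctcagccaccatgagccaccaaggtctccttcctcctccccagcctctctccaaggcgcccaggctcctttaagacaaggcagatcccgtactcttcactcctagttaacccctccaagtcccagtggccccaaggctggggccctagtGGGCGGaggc
Gas6: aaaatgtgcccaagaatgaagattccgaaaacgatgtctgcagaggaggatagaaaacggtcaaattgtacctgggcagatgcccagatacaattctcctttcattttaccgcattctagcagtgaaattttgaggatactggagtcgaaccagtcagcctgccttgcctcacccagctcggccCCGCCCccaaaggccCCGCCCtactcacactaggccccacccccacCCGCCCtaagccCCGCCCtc
The Mertk promoter held 3 GC boxes, that of Axl 1 and that of Gas6 4. Pros1 had 5 and Tyro3 had 3 in the same window. The Tyro3 window (chr2:119799264-119799513) lies inside the annotated span of the gene and overlaps 2 annotated exons, while those of the other 4 members overlap 0. A GC box on either strand was present in 32.7% of 32841 mouse promoter windows of this length. None of the 5 windows held an AP-1 site (TGACTCA or TGAGTCA, 4.46% of all windows), an E-box (CACGTG, 6.02%), the serum response factor motif known as the CArG box (1.47%) or the LXR-type direct repeat with a 4-base spacer (0.0152%). The windows were 54.8% (Gas6), 60.0% (Axl), 63.6% (Mertk), 64.4% (Pros1) and 73.2% (Tyro3) G and C, against a median of 52.4% over all windows.

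Several properties of the libraries bear on every value that follows. Each library held 19.16 to 58.68 in units of 1e6 counts. Mitochondrial transcripts made up 7.72% to 16.32% of counts at 2 and 4 months and 31.75% to 59.31% at 6 months, so levels at 6 months are set beside the earlier ones without a test. Smooth muscle, endothelial and fibroblast markers were detected in every group, and no marker of these lists was at 0 throughout a group. Adipocyte markers summed to 15010 to 25440 CPM (reads per 1e6 counts) at 2 and 4 months and to 5429 to 7884 CPM at 6 months, so the homogenates contained adipose RNA. Markers of airway epithelium, a tissue that does not belong to the aorta, summed to over 1000 CPM in 3 libraries of each of the 2 earlier times (1 sham, 2 Ang II) and in 3 sham and 4 Ang II libraries of the last. Sham replicate 4 at 4 months stood apart from the other 3 sham libraries of its time, with smooth muscle markers at 2539 CPM against 714 to 1268 CPM. In homogenates, fewer cells of a type and less RNA per cell cannot be told apart.

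Axl was the most abundant TAM receptor and Gas6 the more abundant ligand in all 6 groups when counts were scaled by exon length. On the scale of CPM per kilobase of exon, mean Axl ranged from 12.8 in sham aortas at 4 months to 35.1 in sham aortas at 6 months, mean Mertk from 4.20 to 7.35 and mean Tyro3 from 1.04 to 2.18. Mean Gas6 ranged from 44.2 to 89.4 and mean Pros1 from 7.46 to 9.94 on that scale. Gas6 therefore supplied between 83.8% and 89.6% of the length-scaled ligand counts as a group mean. Among the receptors, Axl made up 61.5% to 81.8%, Mertk 12.9% to 29.4% and Tyro3 4.17% to 9.15% of the length-scaled counts as group means.

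**Figure D1:**
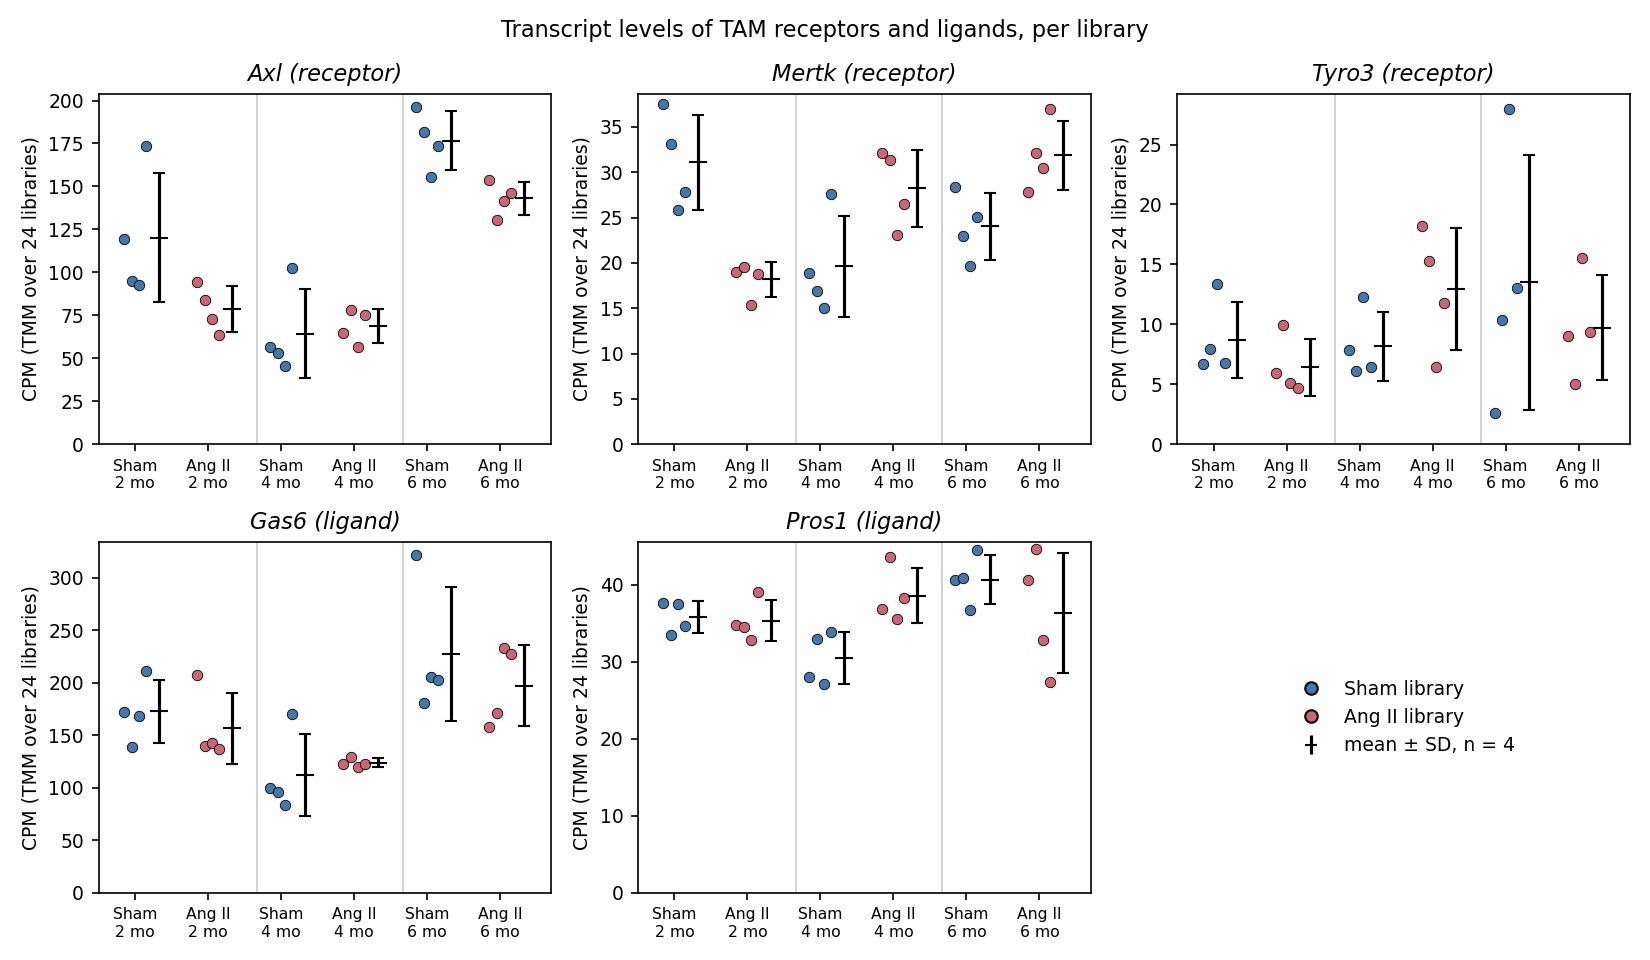
Level of each TAM receptor and ligand in the 24 libraries, in CPM scaled by TMM over all libraries (y axis, from 0), by treatment and months after infusion (x axis); points are libraries and bars are mean ± SD (n = 4). Mertk is lower in all 4 Ang II libraries than in all 4 sham libraries at 2 months, and Axl at 6 months, while Pros1 is higher in all 4 Ang II libraries at 4 months.

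Mertk, the efferocytosis receptor, was the member with a change that passed the test, and it passed at 2 months. In the 4 sham aortas at 2 months Mertk stood at 37.5, 33.15, 25.9 and 27.9 CPM, and in the 4 Ang II aortas at 19.0, 19.55, 15.4 and 18.8 CPM. Every Ang II library lay below every sham library, as in 5.51% of all genes. The means were 31.1 ± 5.26 and 18.2 ± 1.91 CPM (SD, n = 4 each), and the log2 fold change was -0.74 ± 0.14 (SE), a level 1.67-fold lower (edgeR adjusted p = 0.0346 over 16421 genes). Mertk was thus 1 of 5 members called at 2 months, where 1.81% of all genes were called and 1.44% were called lower. The authors' deposited table gives Mertk a log2 fold change of -0.76 and an adjusted p of 0.00017 at this time. The call rested on all libraries: leaving out sham replicate 3 kept it (edgeR adjusted p = 0.0384), while leaving out any other one of the 8 libraries gave an edgeR adjusted p from 0.0538 to 0.120, with log2 fold changes from -0.79 to -0.65. Without the 3 libraries rich in airway markers the log2 fold change was -0.95, with an edgeR adjusted p of 0.114.

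Other cell type markers moved at the same time, and their part in the Mertk difference was not tested. Of 12 macrophage markers, 4 rose at 2 months (Adgre1, Cd68, Trem2 and Ms4a7, with log2 fold changes of 0.98 to 1.66), and the summed macrophage markers were 141 to 218 CPM in the sham libraries against 222 to 304 CPM after Ang II. Mertk, itself a macrophage gene, thus lay lower in the libraries whose macrophage markers lay higher. As a percentage of the summed macrophage markers, Mertk was 12.8% to 25.4% in sham and 6.15% to 8.47% in Ang II libraries. Of 10 smooth muscle markers, 9 fell, with Acta2 at a log2 fold change of -2.52 and Myh11 at -2.20, and their sum was 3374 to 6353 CPM in sham and 835 to 1664 CPM in Ang II aortas. As a percentage of that sum, Mertk went the other way, at 0.44% to 0.83% in sham and 1.14% to 2.25% in Ang II libraries. Fibroblast markers (0 of 8 called) summed to 739.8 to 1540 CPM in the sham libraries against 959 to 1161 CPM after Ang II. Of 8 endothelial markers, 1 rose (Cldn5, log2 fold change 1.40), while 5 lay below 0 with 0 called lower (list median -0.09). Of 10 immediate early genes, 2 rose (Nr4a1, 3.09, and Atf3, 2.34).

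Axl, the receptor with the highest affinity for Gas6, was lower on average in Ang II aortas at 2 months but did not pass the test. Sham libraries held 119.6, 94.9, 92.6 and 174 CPM and Ang II libraries 94.4, 83.9, 73.1 and 63.6 CPM of Axl. Of the 4 Ang II libraries, 3 lay below all sham libraries and 1 overlapped the lower pair. The log2 fold change of Axl was -0.58 ± 0.22 (SE; unadjusted p = 0.0280, edgeR adjusted p = 0.362), and 10.8% of all genes had an unadjusted p below 0.05 in that comparison.

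Tyro3, the least abundant receptor, had 6.70, 7.92, 13.4 and 6.81 CPM in sham and 5.98, 9.925, 5.15 and 4.71 CPM in Ang II libraries at 2 months, and the groups overlapped. Its log2 fold change was -0.40 ± 0.32 (SE, edgeR adjusted p = 0.790). Both ligands differed by less than the spread between libraries at this time. Gas6 lay at 172.5, 139, 169 and 211.5 CPM in sham and at 207, 139.6, 143 and 137 CPM in Ang II libraries, with a log2 fold change of -0.11 ± 0.18 (SE, edgeR adjusted p = 0.914). The 4 sham libraries held 37.6, 33.5, 37.5 and 34.6 CPM of Pros1 and the 4 Ang II libraries 34.7, 34.5, 32.8 and 39.1 CPM. For Pros1 the log2 fold change was 0.0045 ± 0.08 (SE, edgeR adjusted p = 0.995).

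At 4 months no member was called, while 0.707% of 16127 genes were, and all 5 members had fold changes above 0. The median log2 fold change of the members was 0.36, against 0.04 over all genes tested. Pros1, the gene of the anticoagulant protein S, came nearest to a call. Its levels were 28.05, 33.0, 27.1 and 33.8 CPM in sham and 36.8, 43.6, 35.5 and 38.3 CPM in Ang II libraries, with every Ang II library above every sham library, as in 3.22% of all genes. The log2 fold change of Pros1 was 0.36 ± 0.11 (SE; edgeR adjusted p = 0.174), and the authors' deposited table gives 0.34 with an adjusted p of 0.0853. With limma voom and library weights it was 0.47 (adjusted p = 0.0478), a setting that called 602 genes against 114 with edgeR.

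Mertk at 4 months was 18.9, 16.9, 15.02 and 27.6 CPM in sham and 32.1, 31.4, 23.1 and 26.5 CPM in Ang II libraries. Sham replicate 4 lay among the Ang II values and the other 3 sham libraries lay below them. The log2 fold change of Mertk was 0.55 ± 0.20 (SE, edgeR adjusted p = 0.248). The same sham library was the highest of its group in Axl and Gas6. Axl stood at 56.8, 52.9, 45.6 and 102 CPM in sham and at 64.55, 78.3, 56.6 and 75.3 CPM in Ang II libraries, a log2 fold change of 0.11 ± 0.25 with an edgeR adjusted p of 0.834. Gas6 stood at 99.6, 96.2, 83.9 and 170.4 CPM in sham and at 123.0, 129.6, 119.9 and 123.1 CPM in Ang II libraries, a log2 fold change of 0.16 ± 0.21 with an edgeR adjusted p of 0.721. Without that library, 2 members were called: Mertk at a log2 fold change of 0.75 (edgeR adjusted p = 0.0378) and Gas6 at 0.43 (edgeR adjusted p = 0.0291). In all, 674 genes were then called in place of 114 (0.707%), so calls were gained outside the members as well. Axl then had a log2 fold change of 0.43 (edgeR adjusted p = 0.167).

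Tyro3 at 4 months was 7.865, 6.09, 12.3 and 6.41 CPM in sham and 18.2, 15.3, 6.41 and 11.8 CPM in Ang II libraries, with 2 of the latter above all sham libraries. Its log2 fold change was 0.69 ± 0.35 (SE), and the edgeR adjusted p was 0.378. Of the 12 macrophage markers 4 rose at 4 months as well (Cd68, Trem2, Ms4a7 and Mpeg1), and their sum was 115 to 224 CPM in the sham libraries against 251 to 295 CPM after Ang II. The part of these markers in the member values was not tested. Mertk made up 11.5% to 13.2% of the summed macrophage markers in sham and 7.83% to 12.8% in Ang II libraries. Smooth muscle markers were not called in either direction (0 of 10), but all 10 lay below 0 (median log2 fold change -0.70). Their sum was 714 to 2539 CPM in sham and 547 to 904 CPM in Ang II libraries. As a percentage of that sum, Mertk was 1.09% to 2.305% in sham and 2.93% to 4.28% in Ang II libraries. The part of the smooth muscle markers in the member values was not tested either.

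At 6 months edgeR called 0 of 19343 genes (0.0%), with 976 genes at an unadjusted p under 0.05 (5.05%). DESeq2 called 64 genes and limma voom called 0. Axl was lower in every Ang II library than in every sham library, a separation in that direction that 1.55% of all genes showed. It stood at 196, 182, 155 and 173.5 CPM in sham and at 154, 131, 142 and 146 CPM in Ang II libraries, with a log2 fold change of -0.30 ± 0.11 (SE; unadjusted p = 0.0212, edgeR adjusted p = 0.922). Mertk had the opposite sign. It stood at 28.4, 22.95, 19.6 and 25.1 CPM in sham and at 27.85, 32.1, 30.5 and 36.9 CPM in Ang II libraries, where 3 of 4 lay above all sham libraries. The log2 fold change of Mertk was 0.41 ± 0.13 (SE; unadjusted p = 0.0137, edgeR adjusted p = 0.922). In the authors' deposited table the adjusted p-values of Axl and Mertk at this time are 0.428 and 0.489.

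Tyro3 was most variable at 6 months, with 2.61, 10.4, 28.0 and 13.05 CPM in sham and 9.04, 4.99, 15.6 and 9.33 CPM in Ang II libraries, and the groups overlapped. Gas6 lay at 322, 181, 205 and 203 CPM in sham and at 158, 171, 233 and 228 CPM in Ang II libraries. Pros1 lay at 40.5, 40.9, 36.6 and 44.5 CPM in sham and at 40.6, 44.6, 32.8 and 27.3 CPM in Ang II libraries. The log2 fold changes were -0.49 ± 0.62 for Tyro3, -0.20 ± 0.21 for Gas6 and -0.16 ± 0.15 for Pros1 (SE), each with an edgeR adjusted p of 0.9997. Macrophage markers summed to 349.7 to 499 CPM in sham and to 309 to 385 CPM in Ang II libraries, and smooth muscle markers to 908 to 1290 CPM in sham and to 1358 to 2324 CPM in Ang II libraries, with 0 of 12 and 0 of 10 called. Of 8 fibroblast markers 7 lay below 0 (median log2 fold change -0.24, 0 called), and their sum was 1175 to 1618 CPM in the sham libraries against 1047 to 1216 CPM after Ang II. All 6 skeletal muscle markers lay above 0 (median 3.62, 0 called), with sums of 40.8 to 577 CPM in sham and 561 to 7806 CPM in Ang II libraries. The part of these 4 marker lists in the Axl and Mertk values was not tested. Mertk as a percentage of the summed macrophage markers was 4.60% to 6.20% in sham and 7.80% to 9.88% in Ang II libraries. As a percentage of the summed smooth muscle markers it was 1.85% to 2.88% in sham and 1.31% to 2.36% in Ang II libraries, and the groups overlapped.

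**Figure D2:**
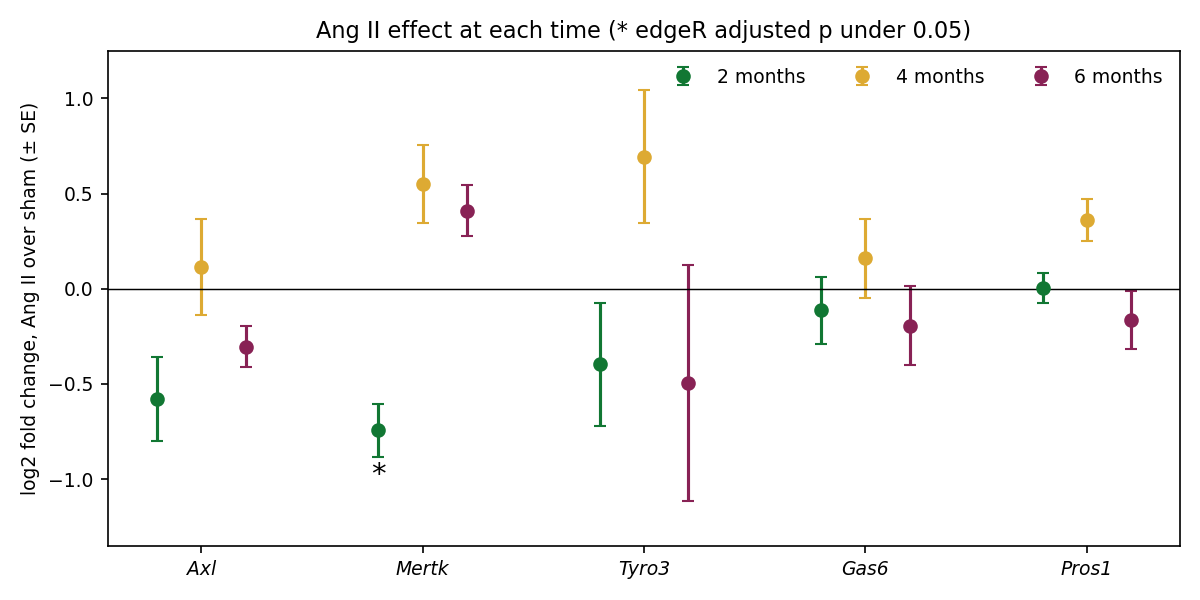
Log2 fold change of Ang II over sham (y axis, ± SE from edgeR) for each TAM receptor and ligand (x axis) at 2, 4 and 6 months, each from 4 against 4 libraries; the asterisk marks an edgeR adjusted p under 0.05. Mertk is at -0.74 at 2 months and at 0.55 and 0.41 at 4 and 6 months.

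Whether the Ang II effect differed between times was tested directly over all 24 libraries. The 6-month libraries differed from the earlier ones in mitochondrial share, so time and library make-up cannot be told apart in this test. Mertk was the member whose effect differed (interaction of treatment and time, edgeR adjusted p = 0.0164), in a test that called 0.536% of 19218 genes. Its effect at 6 months exceeded that at 2 months by 1.18 ± 0.24 on the log2 scale (SE; edgeR adjusted p = 0.0192, 0.843% of genes called), a contrast added after the data were seen. The effect at 4 months exceeded that at 2 months by 1.30 ± 0.24 (SE, edgeR adjusted p = 0.107, 0.0052% of genes called), and those at 6 and 4 months differed by -0.12 ± 0.24 (SE, edgeR adjusted p = 0.864, 0.0468% of genes called). The interaction was lost without sham replicate 1 of 2 months (edgeR adjusted p = 0.0560). The contrast of 6 with 2 months was lost without that library (edgeR adjusted p = 0.0561) or without sham replicate 3 of 6 months (edgeR adjusted p = 0.0520). That of 4 with 2 months was gained without sham replicate 4 of 4 months (edgeR adjusted p = 0.00166) or Ang II replicate 3 of 4 months (edgeR adjusted p = 0.0340). It also passed with DESeq2 (1.27, adjusted p = 0.000729) and limma voom (1.51, adjusted p = 0.0033), in 2 of 8 other settings. Those 2 called 153 and 475 genes for this contrast, against 1 with edgeR.

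For the other members the interaction did not pass, with edgeR adjusted p-values of 0.494 for Axl, 0.608 for Tyro3, 0.795 for Gas6 and 0.325 for Pros1. With limma voom and library weights the interaction of Pros1 passed (adjusted p = 0.0480), in a setting that called 787 genes against 103 with edgeR. Averaged over the 3 times, no member was called (1 of 19218 genes was, 0.0052%). The average log2 fold changes were -0.27 ± 0.13 for Axl (SE, edgeR adjusted p = 0.727), 0.06 ± 0.16 for Mertk (SE, edgeR adjusted p = 0.987), and between -0.08 and 0.05 for Tyro3, Gas6 and Pros1.

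The balance between receptors was compared within each library, as a ratio of counts that does not depend on the scaling of the library. No ratio differed beyond the threshold after adjustment, and the Mertk to Axl ratio had groups that did not overlap at 4 and 6 months. The log2 ratio of Mertk to Axl counts was -1.89 to -1.59 in sham and -1.51 to -1.01 in Ang II libraries at 4 months, a difference of 0.40. At 6 months it was -2.98 to -2.79 in sham and -2.46 to -1.98 in Ang II libraries, a difference of 0.71. Each gave p = 0.0286 in a two-sided exact permutation test, the smallest that 4 against 4 libraries can give. After Benjamini-Hochberg adjustment over 12 such tests each stood at 0.171. With only these ratios at that smallest p, neither could pass the adjustment, whatever the size of its difference. How often ratios of other gene pairs separate in this way was not tested. At 2 months the difference was -0.19 (exact permutation p = 0.514, adjusted 0.900), with lower means of both genes in Ang II aortas.

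On the length-scaled measure, Mertk made up 22.95% to 25.8% of the receptor counts in sham and 26.6% to 31.9% in Ang II libraries at 4 months, and 11.35% to 14.3% in sham and 16.7% to 21.8% in Ang II libraries at 6 months. The ratio of Axl to Gas6 was lower by 0.43 on the log2 scale in Ang II aortas at 2 months, where 3 of 4 libraries lay below all sham libraries (exact permutation p = 0.0571, adjusted 0.229). All other ratios, which were Tyro3 to Axl and Gas6 to Pros1 at each time and Axl to Gas6 at 4 and 6 months, gave exact permutation p-values of 0.400 or higher.

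**Figure D3:**
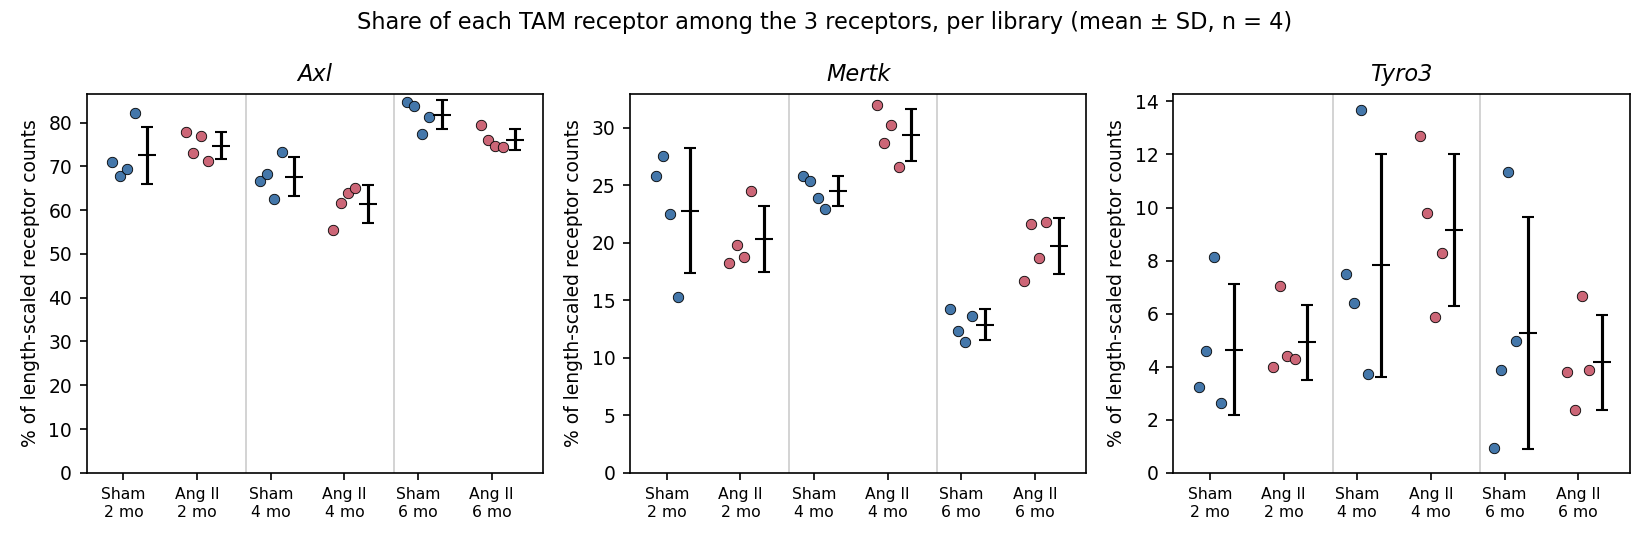
Share of Axl, Mertk and Tyro3 in the length-scaled counts of the 3 TAM receptors (y axis, percent, from 0) in each library, by treatment and months (x axis); points are libraries and bars are mean ± SD (n = 4). The Mertk share is higher in all 4 Ang II than in all 4 sham libraries at 4 months and at 6 months, and the groups overlap at 2 months.

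Levels in sham aortas at 4 months were then compared with those at 2 months, with the same sham libraries as in the comparisons above. None of the 5 members was called, and of 16144 genes 1 was (0.00619%). Axl, Mertk, Gas6 and Pros1 were each lower in 3 of 4 libraries at 4 months than in all 4 at 2 months, with log2 fold changes of -0.92 ± 0.29, -0.69 ± 0.21, -0.64 ± 0.23 and -0.26 ± 0.10 (SE). Their edgeR adjusted p-values were 0.190, 0.170, 0.229 and 0.254. Tyro3 differed by -0.13 ± 0.30 (SE, edgeR adjusted p = 0.863). Without sham replicate 4 of 4 months, Axl (-1.24, edgeR adjusted p = 0.0275), Mertk (-0.91, edgeR adjusted p = 0.0213) and Gas6 (-0.92, edgeR adjusted p = 0.0167) were called. In all, 641 genes were then called in place of 1, so here too calls were gained outside the members. Smooth muscle markers had a median log2 fold change of -2.03 in this comparison with 0 of 10 called, and their part in these values was not tested.

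In Ang II aortas the order of the times was the reverse for Mertk. Every library at 4 months lay above every library at 2 months, with a log2 fold change of 0.64 ± 0.14 (SE; edgeR adjusted p = 0.225). DESeq2 gave Mertk an adjusted p of 0.00629 and called 270 genes, against 1 with edgeR, and of 9 other settings it was the 1 in which Mertk passed. Gas6 lay lower in all 4 libraries at 4 months than at 2 months, by -0.33 ± 0.14 (SE, edgeR adjusted p = 0.459). Of 16367 genes, 2.5% were higher and 3.49% lower in every library at 4 months, and 0.00611% were called. Tyro3 differed by 1.001 ± 0.37 (SE, edgeR adjusted p = 0.412), Axl by -0.19 ± 0.16 (edgeR adjusted p = 0.687) and Pros1 by 0.14 ± 0.10 (edgeR adjusted p = 0.623).

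Ordered by mean level, Axl was highest in sham aortas at 6 months (176.7 ± 17.1 CPM, SD, n = 4) and lowest in sham aortas at 4 months (64.4 ± 25.8 CPM). The top group did not overlap the next, Ang II aortas at 6 months (143 ± 9.65 CPM), and each lower neighbour in the order overlapped the one above it. Mertk ran from 31.85 ± 3.82 CPM in Ang II aortas at 6 months to 18.2 ± 1.91 CPM in Ang II aortas at 2 months, with overlap between every pair of neighbours in its order. Gas6 ran from 228 ± 63.6 CPM in sham aortas at 6 months to 112.5 ± 39.2 CPM in sham aortas at 4 months. Its neighbours in the order overlapped except Ang II aortas at 2 months (157 ± 33.9 CPM) and at 4 months (124 ± 4.09 CPM). Neighbours overlapped throughout for Tyro3, from 13.5 ± 10.6 to 6.44 ± 2.38 CPM, and for Pros1, from 40.6 ± 3.20 to 30.5 ± 3.39 CPM.

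The levels of Axl and Gas6 followed each other across the 16 libraries at 2 and 4 months, with a Pearson r of 0.90 between their log2 CPM. Among 13575 genes, Gas6 ranked 88 by likeness to Axl, and Axl ranked 45 by likeness to Gas6. These correlations describe libraries that share tissue make-up and depth, and carry no test. The genes most like Axl were Islr (0.982), Scara3 (0.966), Antxr1 (0.956), Omd (0.955) and Mxra8 (0.950). Those most like Gas6 were Col14a1 (0.963), a fibril-associated collagen, Plat (0.961), the tissue plasminogen activator, Aebp1 (0.955), Cdh3 (0.952) and Scara3 (0.945). Scara3 was thus on both lists.

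Mertk was less like Axl (0.59), Pros1 (0.58), Gas6 (0.42) and Tyro3 (0.35) over those libraries. Its nearest genes were Atxn3 (0.871), Fam129b (0.854), Adarb1 (0.854), Gnb4 (0.841) and Fam107a (0.837). Pros1 was most like Stard8 (0.848), Serpinb8 (0.830), Fes (0.817), Tmem44 (0.809) and Rab38 (0.804). For Tyro3 they were Cep170b (0.914), Ttc9 (0.911), Nphp4 (0.911), Prkcz (0.897) and Mfsd6 (0.896), and its r with Axl and Gas6 was -0.14 and -0.27.

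**Figure D4:**
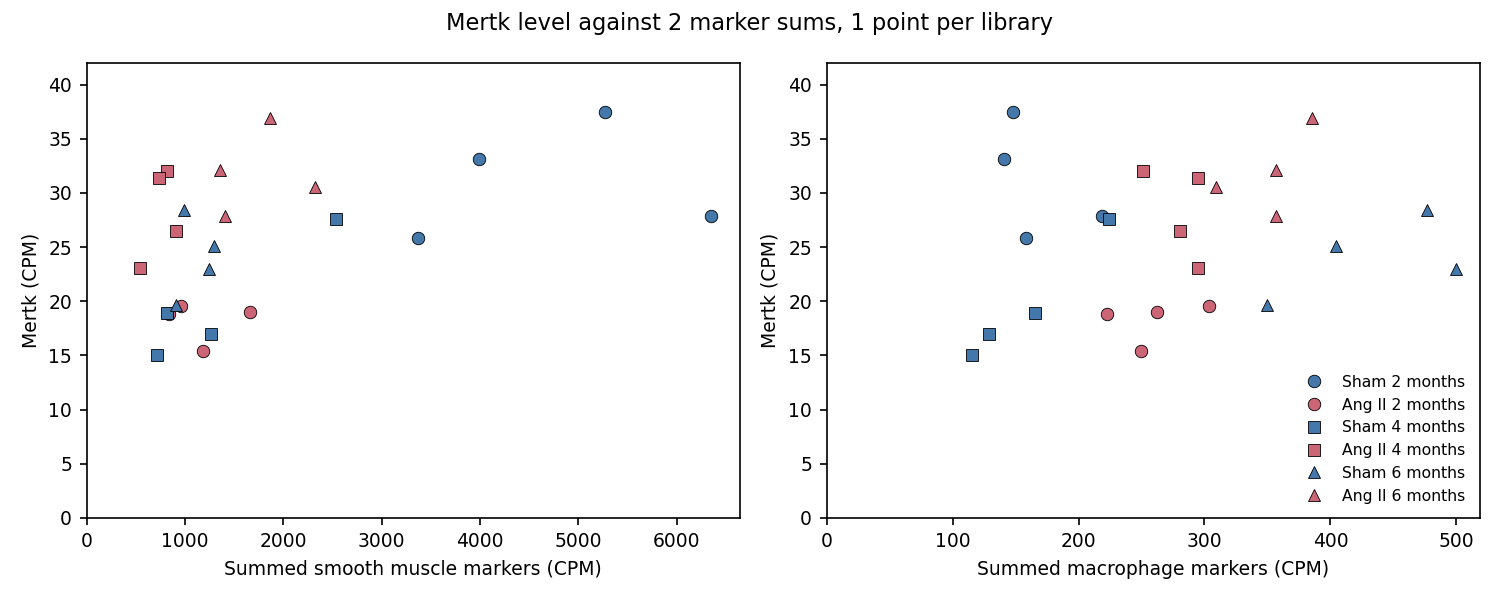
Mertk level (y axis, CPM, from 0) against the sum of 10 smooth muscle markers (left) and of 12 macrophage markers (right), both in CPM (x axes), 1 point per library; colour gives treatment and shape gives months. At 2 months the Ang II libraries (red circles) hold less Mertk and less smooth muscle marker RNA but more macrophage marker RNA than the sham libraries (blue circles).

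The genes around the receptors were described by list. Among 18 tested receptors and bridging molecules for apoptotic cells other than TAM, 2 fell at 2 months. Itgb3, the integrin beta chain that pairs with Itgav to bind Mfge8-coated cells, had 28.0 CPM in sham and 9.16 CPM in Ang II aortas (-1.58 ± 0.24 on the log2 scale, edgeR adjusted p = 0.0159). Itgb5, the other beta chain of this kind, had 170.9 CPM in sham and 95.6 CPM in Ang II aortas (-0.81 ± 0.13, SE, edgeR adjusted p = 0.0180). The list as a whole had 13 of 18 fold changes above 0 and a median log2 fold change of 0.28, against 0.01 over all genes, so these integrins fell while most of the list lay above 0. Mfge8 (-0.48, edgeR adjusted p = 0.337) and Itgav (-0.23, edgeR adjusted p = 0.360) also lay below 0 but were not called. Smooth muscle markers fell and macrophage markers rose at this time, and their part in these values was not tested. The complement bridges C1qa, C1qb and C1qc had log2 fold changes of 0.69, 0.70 and 0.72 at 2 months. Those at 4 months were 0.81, 0.86 and 1.01, and none of the 6 values passed (edgeR adjusted p from 0.0543 to 0.0943).

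At 2 months no tested gene was called among the other reported TAM ligands (0 of 3), the vitamin K cycle that carboxylates Gas6 and protein S (0 of 5), the sheddases that release TAM ectodomains (0 of 4), transcriptional regulators of the receptors (0 of 12), LXR targets (0 of 6), TAM signalling and cytokine brakes (0 of 18), engulfment machinery (0 of 12) and phosphatidylserine scramblases and flippases (0 of 8). Ggcx, the carboxylase itself, was not among the 5 tested genes of the vitamin K cycle, since the table holds 3 counts of it in 1 library and 0 in the others. Median log2 fold changes of the lists were -0.45, -0.08, 0.02, -0.02, 0.23, 0.03, 0.03 and -0.06 in that order. The gene with the smallest p was Tulp1 among the ligands (-1.42, edgeR adjusted p = 0.352), Vkorc1l1 in the vitamin K cycle (-0.08, 0.858), Rhbdf1 among the sheddases (-0.54, 0.0544), Abca1 among the LXR targets (0.50, 0.189), Dock2 in the engulfment machinery (1.21, 0.645) and Ano6 among the scramblases and flippases (-0.14, 0.643). Rhbdf1 serves the trafficking of the sheddase Adam17.

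At 4 months none of the 9 lists held a called gene. The nearest were C1qc, at 41.5 CPM in sham and 82.4 CPM in Ang II aortas, and Lgals3, the gene of galectin-3, at 22.6 and 50.6 CPM (1.18 ± 0.24 on the log2 scale, edgeR adjusted p = 0.0688). Apoe, an LXR target that carries lipid out of macrophages, had 2981 CPM in sham and 3841 CPM in Ang II aortas (0.39 ± 0.11, SE, edgeR adjusted p = 0.152). The gene with the smallest p in the remaining lists was Vkorc1 (0.36, edgeR adjusted p = 0.287), Rhbdf2 (0.33, 0.134), Nr1h2 (-0.16, 0.258), Socs3 (0.54, 0.166), Rubcn (0.26, 0.204) and Plscr1 (0.65, 0.163). Median log2 fold changes of the lists lay between -0.11 for the vitamin K cycle and 0.82 for the other reported ligands, of which 2 were tested.

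At 6 months the lists again held no called gene, and the smallest edgeR adjusted p was 0.922, for Stab1, an apoptotic cell receptor of macrophages and sinusoidal endothelium (log2 fold change -0.32 ± 0.11, SE). Mylip had 0.34 (edgeR adjusted p = 0.926) and Src -0.35 (edgeR adjusted p = 0.930), while Lgals3, Aifm2, Adam17, Sp1, Myo1e and Plscr1 lay between -0.41 and -0.16 with an edgeR adjusted p of 0.9997. All 12 engulfment genes and 16 of 19 apoptotic cell receptors and bridges had fold changes below 0 at 6 months, with medians of -0.14 and -0.22 against -0.03 over all genes.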

How the data were processed

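Per the labels' protocols, RNA from 24 aortic homogenates was isolated with a spin-column kit and made into mRNA libraries. The mm10 build and the tools STAR, featureCounts, DESeq2, cutadapt and FastQC appear in the submitters' processing notes. Their versions, the strand setting and the annotation release were not given in the sources. The authors deposited whole-number read counts per gene. For each time the authors' deposited comparison of both treatments holds a log2 fold change, its standard error, p-values and a fold change as a ratio per gene. All count columns were matched to samples by name (0 unmatched).

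Counts were tested in R 4.3.3 with edgeR 4.0.16 (filterByExpr, minimum count 10 and minimum total 15; TMM; quasi-likelihood F test; Benjamini-Hochberg over all genes at 0.05), within each time or, for the interaction and average, over 24 libraries. Each SE was computed as the log2 fold change over the square root of F. CPM of single libraries were scaled by TMM over 24 libraries, and exon lengths come from GENCODE annotation of the same build. Likeness used log2 CPM (prior count 3) and genes with a mean of at least 1 CPM, and named the 5 highest r per member. From each list, up to 4 called genes with the largest change were named at each time, or the gene with the smallest p where none was called; the C1q genes and marker genes were chosen after their values were seen. The genes this rule named for 2 lists at 2 months are not reported here.

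The members and lists were chosen with earlier results of these data known. Other settings were DESeq2 size factors, DESeq2 1.42.0, limma 3.58.1 voom with library weights, other low-count filters, removal of mitochondrial and ribosomal RNA genes, removal of libraries over 1000 CPM of airway markers, replicate numbers as a block, 24 libraries in 1 fit, and each library left out. The script was tested on simulated counts. No pair of replicates agreed within sampling noise. Depth was 19.16 to 58.68 per library, in units of 1e6 counts.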

Additional observations from a re-analysis of the deposited data

Results flagged for a closer look

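Gas6 in Ang II aortas at 2 months had 1 library far from the others: replicate 1 stood at 207.3 CPM, and the other 3 at 136.8 to 142.7 CPM. Its gap to the nearest library exceeded Dixon's limit for 4 values. Of 30 groups of member values checked this was the one that did so, and chance gives about 1 in 20. Without that library the log2 fold change of Gas6 at 2 months was -0.28 (edgeR adjusted p = 0.569).

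The Ang II effect on Mertk differed between times by the test of the interaction (edgeR adjusted p = 0.01644), and between 6 and 2 months by 1.179 on the log2 scale. Time and library make-up cannot be told apart in either value, since the mitochondrial share differed at 6 months. At 2 months all 4 Ang II libraries lay below all sham libraries, and at 6 months 3 of 4 lay above them.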

How the results depend on the processing

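Of 932 member values recomputed under other settings, 870 kept their direction and their side of the threshold, 32 changed sign, 18 gained a call and 12 lost one. The cause of these changes was not tested. No scaling moved the median log2 fold change of all genes by over 0.1. Tyro3 had the fewest counts of the members over all libraries, 63 to 935 in each.

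Mertk at 2 months was called in 8 of 9 settings other than leaving out single libraries, with adjusted p-values from 0.000186 to 0.114. The exception was the removal of libraries rich in airway markers (log2 fold change -0.954, edgeR adjusted p = 0.114). Leaving out single libraries gave -0.8245 to -0.6525 and kept 1 of 8 calls, that without sham replicate 3. Its interaction with time had an edgeR adjusted p of 0.00169 to 0.0560 over the 24 libraries left out in turn, and 23 of 24 kept the call.

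Replicate numbers are shared between groups, and whether they pair the libraries was checked. Correlations of same-numbered deviations were -0.294 to 0.437 (2 months), -0.189 to 0.328 (4 months) and -0.169 to 0.51 (6 months). At those times 1, 1 and 2 of 4 numbers correlated best with their own. The check thus showed no pairing by number, but with 4 libraries per group it cannot exclude it. With a replicate block, Mertk at 2 months had an edgeR adjusted p of 0.0302, the interaction of Mertk 0.06113, and Axl in sham at 4 against 2 months -0.9533 (edgeR adjusted p = 0.0390), and no other member call changed. The block left 0 genes called at 4 months and for the average, 1 for the interaction and 140 for sham at 4 against 2 months.

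DESeq2 called 727, 993 and 64 genes at 2, 4 and 6 months, 56 for the average, 545 for the interaction, 830 for sham at 4 against 2 months and 270 for Ang II at 4 against 2 months, and limma voom called 629 and 602 at 2 and 4 months, 30, 787, 801 and 20 for the last 4. At 4 months 40 genes were called with no low-count filter, 68 with a mean count of at least 5, 233 without mitochondrial and ribosomal RNA genes and 11 in 1 fit of 24 libraries. In sham at 4 against 2 months, 4 genes were called with no low-count filter and 453 in 1 fit of 24 libraries. For Ang II at 4 against 2 months, 2 were called with DESeq2 size factors, 3 with no filter, 2 without mitochondrial genes and 4 in 1 fit. Removal of libraries rich in airway markers left 119 genes at 2 months and 0 at 4 months and over time in sham and Ang II. That removal could not be fitted at 6 months, for the average or for the interaction, since no Ang II library was left at 6 months.

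Pros1 at 2 months changed sign at -0.003872 (DESeq2 size factors), -0.003596 (DESeq2), -0.07382 (voom), -0.01393 (without mitochondrial genes) and -0.02122 (1 fit of 24 libraries). Without airway-rich libraries, Axl at 4 months was -0.1696 and Tyro3 in sham over time 0.2782. With voom, the average effect on Gas6 was 0.0001252 and Axl in Ang II over time 0.00514. Calls were gained with voom for Pros1 at 4 months (0.4721) and its interaction (adjusted p = 0.048), and with DESeq2 for Mertk in Ang II over time (0.6355). They were also gained for Axl in sham over time (DESeq2 -0.896, voom -0.9159, 1 fit -0.8993) and for Mertk in sham over time (voom -0.7806, 1 fit -0.6633). The contrast of the Mertk effect at 4 months with that at 2 months was gained with DESeq2 (1.274) and voom (1.511).

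Leaving out single libraries gave 78 to 255 called genes at 2 months, 0 to 674 at 4 months, 1 to 7 for the average, 34 to 308 for the interaction, 0 to 641 for sham over time and 0 to 1 for Ang II over time. The 674 and 641 came without sham replicate 4 of 4 months. Log2 fold changes then ran from -0.0225 to 0.4261 for Axl, 0.4361 to 0.753 for Mertk and 0.03846 to 0.4264 for Gas6 at 4 months, from -0.03553 to 0.04768 for Pros1 at 2 months and from -0.8404 to 0.1576 for Tyro3 at 6 months. In sham over time they ran from -1.243 to -0.6991 for Axl, -0.9083 to -0.5498 for Mertk, -0.3572 to 0.1641 for Tyro3 and -0.9205 to -0.4934 for Gas6. Average effects ran from -0.001127 to 0.1298 for Mertk, -0.1773 to 0.1312 for Tyro3 and -0.1151 to 0.001353 for Gas6. Log2 ratios ran from -0.1501 to 0.4772 (Tyro3 to Axl, 2 months), -0.5438 to 0.7089 (the same, 6 months), -0.09152 to 0.03239 and -0.2481 to 0.0001473 (Axl to Gas6, 4 and 6 months), and -0.2413 to 0.02143 and -0.2099 to 0.1729 (Gas6 to Pros1, 4 and 6 months).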
